A study of Mus musculus with 10 samples.

Results

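Lactose, the main sugar and main osmotic solute of milk, is made in the Golgi of the secretory epithelial cell of the mammary gland. Glucose enters the cell through a facilitative transporter, is phosphorylated by hexokinase, is turned from glucose 6-phosphate into glucose 1-phosphate by phosphoglucomutase and is joined to UTP by UDP-glucose pyrophosphorylase. UDP-glucose is then converted to UDP-galactose, which a transporter carries into the Golgi. There a galactosyltransferase, bound to the milk protein alpha-lactalbumin, joins galactose to free glucose. Described here are 8 genes of this route, chosen by symbol from the 35275 Ensembl genes of the deposited table: Slc2a1, Hk1, Hk2, Pgm1, Pgm2, Ugp2, Slc35a2 and B4galt1. Each symbol matched 1 row, and all 8 genes passed the filter on low values.

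The glands came from BALB/c mice in lactation. They were injected through the teat with lipopolysaccharide (LPS, the endotoxin of Gram-negative bacteria, here from E. coli 055: B5) or with sterile phosphate-buffered saline (PBS). The dose was 50 µL at 0.4 mg/mL in LPS glands and 50 µL of PBS in PBS glands. Injection was at lactation day 3, and 12 h later each gland was taken individually. RNA of 5 LPS and 5 PBS libraries was sequenced, and no uninjected gland was analysed here. Per the labels, the 2 injections were given to the left or right gland of the 4th pair, so a PBS gland lay in an animal whose opposite gland had LPS. Which libraries came from the same animal is not given, so p-values speak only of the variation among these samples. A bulk gland holds many cell types, and fewer cells of a type cannot be told apart from less RNA per cell.

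Libraries held 15734303 to 18869545 counted reads. The 8 genes had 325 to 14007 reads each in any 1 library. Values are the deposited FPKM, a level scaled to gene length and to counted reads. Genes of milk proteins took 32.1 to 44.3% of summed FPKM in LPS glands and 38.6 to 49.9% in PBS glands, which marks both groups as lactating tissue. In limma 5 of 8 tested neutrophil markers were called higher, where 2.63% of all tested genes were. Neutrophil markers summed to 7374 to 14200 FPKM in LPS glands and 709.2 to 1872 FPKM in PBS glands. S100a8 and S100a9 made up at least 98% of this sum in every library, and the other 8 markers summed to 17.4 to 56.3 FPKM in LPS and 8.05 to 17.1 FPKM in PBS glands. The score of B and T cell markers was highest in PBS replicate 2, PBS replicate 4 and LPS replicate 3. With that score as a covariate, and without these 3 libraries, 0 of the 8 genes were called. The part of neutrophils in the results was not tested.

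The loci below are those of GENCODE M21 on build mm10 (GRCm38), and all 8 are protein-coding genes. Slc2a1 (ENSMUSG00000028645) lies at chr4:119108711-119137983 on the plus strand, and Hk1 (ENSMUSG00000037012) at chr10:62268855-62379908 on the minus strand. Hk2 (ENSMUSG00000000628) lies at chr6:82725025-82774454 on the minus strand. Pgm1 (ENSMUSG00000025791) lies at chr4:99929414-99987294 and Pgm2 (ENSMUSG00000029171) at chr5:64092950-64128351, both on the plus strand. The RefSeq table lists Pgm2 as an older name of the chromosome 4 gene and Pgm1 as an older name of the chromosome 5 gene, so the identifiers and not the symbols fix which is which here. Ugp2 (ENSMUSG00000001891) lies at chr11:21321138-21371201 on the minus strand, Slc35a2 (ENSMUSG00000031156) at chrX:7884028-7894492 on the plus strand and B4galt1 (ENSMUSG00000028413) at chr4:40804602-40854005 on the minus strand. Exons of Pgm1 share 398 bases with the opposite-strand gene Itgb3bp, which was at 0.293 FPKM in LPS and 0.429 FPKM in PBS glands. Exons of Slc2a1, Ugp2 and Hk1 share 105, 78 and 157 bases with opposite-strand noncoding genes, all with means under 1 FPKM. The labels do not say whether strand was kept, so reads in the shared stretches cannot be assigned.

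The DNA just upstream of 3 genes is shown because B4galt1 and Lalba, the gene of alpha-lactalbumin, encode the 2 proteins of lactose synthase, and Slc2a1 encodes the transporter through which glucose enters. Sequences are from the RefSeq promoter table (GRCm38.p6, the reference strain and not BALB/c), end before the first annotated exon, and run 5′ to 3′ on the strand of the gene. Capitals mark GGGCGG, the GC box, on either strand.
B4galt1, chr4:40854006-40854234, minus strand: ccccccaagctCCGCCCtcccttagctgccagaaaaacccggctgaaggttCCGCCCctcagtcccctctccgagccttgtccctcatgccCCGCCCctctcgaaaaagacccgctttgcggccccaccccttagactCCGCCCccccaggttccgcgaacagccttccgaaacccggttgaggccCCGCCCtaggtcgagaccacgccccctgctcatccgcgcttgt
Slc2a1, chr4:119108495-119108710, plus strand: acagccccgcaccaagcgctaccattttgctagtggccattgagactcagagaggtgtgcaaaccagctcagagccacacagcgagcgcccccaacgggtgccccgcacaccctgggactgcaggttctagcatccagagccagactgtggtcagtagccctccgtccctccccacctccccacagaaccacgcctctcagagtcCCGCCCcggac
Lalba, chr15:98482722-98482933, minus strand: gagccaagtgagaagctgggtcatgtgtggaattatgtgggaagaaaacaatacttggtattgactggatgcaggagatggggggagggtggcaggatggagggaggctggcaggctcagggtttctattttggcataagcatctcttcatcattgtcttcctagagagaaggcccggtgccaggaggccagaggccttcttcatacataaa

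The B4galt1 stretch held 5 GC boxes in 229 bases, the Slc2a1 stretch 1 in 216 bases and the Lalba stretch 0 in 212 bases. Next, 4 motifs were searched on both strands in windows of 300 bases around each annotated start, of which the 8 genes have 10. The GC box was present in 8 of these 10 windows, in every gene but Hk1, and in 35.7% of the 32851 windows of all genes. ACGTG, the core of the hypoxia response element, was in 7 of the 10 windows, 1 window in each gene but B4galt1, and in 19.6% of all windows. TTCNNNGAA, the form of site bound by STAT5, was in the B4galt1 window alone, against 8.3% of all windows. CACGTG, an E-box that contains ACGTG, was in none of the 10 windows, against 7.2% of all windows. The 10 windows held 51.3 to 76.0% G and C, and the shares of all windows were not matched for this content. These matches are letters in a window and were not tested for binding.

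Among the 8 transcripts, no difference between LPS and PBS glands was detected 12 h after injection at this number of glands. This does not show equal levels: the 95% interval of B4galt1 ran from -32.1% to 32.1% on FPKM + 1. None of the 8 genes was called in the limma test at an adjusted p below 0.05 (0 of 8), where 3.23% of 11414 tested genes were called. Their log2 changes on log2(FPKM + 1), LPS minus PBS, ran from -0.20 for Slc35a2 to 0.24 for Pgm2, with a median of 0.04, against a median of 0.05 over all tested genes. All 8 changes were within 0.25 in either direction, as were 78.6% of all tested genes. LPS and PBS libraries overlapped for all 8 genes, where 4.75% of tested genes did not overlap. At an unadjusted p below 0.05 limma gave 1 of the 8 genes, Pgm2, against 16.5% of all tested genes. On whole reads recovered from the FPKM, edgeR and DESeq2 also called 0 of 8, against 3.37% and 5.62% of the genes they tested. Unadjusted, edgeR gave 1 gene, Slc35a2, against 17% of its tested genes, and DESeq2 gave 0, against 15.9%. The authors' deposited table of 908 genes with an adjusted p below 0.05 holds 0 of the 8. Of the 35275 genes with deposited FPKM, 23059 were above 0 in at least 1 library. The 95% interval was widest for B4galt1, from -0.56 to 0.40, and narrowest for Ugp2, from -0.17 to 0.23.

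**Figure D1:**
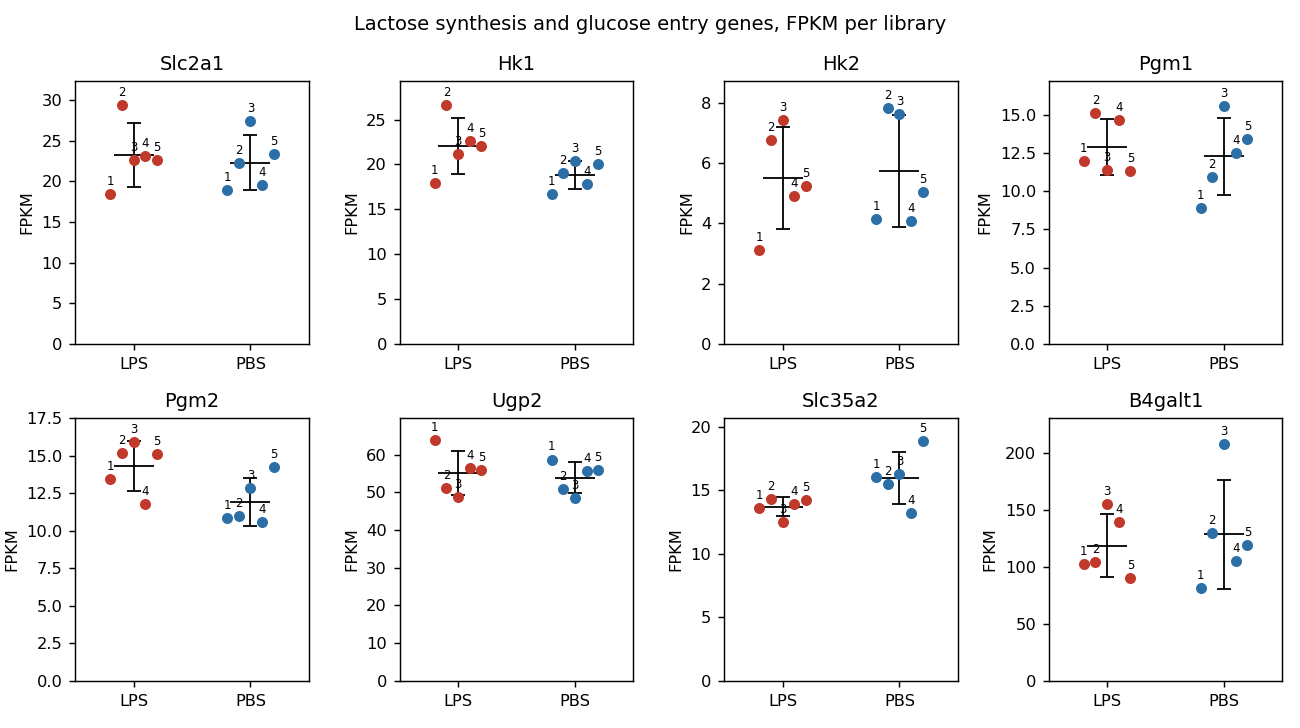
FPKM of the 8 genes in each LPS library (left, red) and each PBS library (right, blue), with the replicate number over each point, and the mean and SD of 5 libraries as black bars. The groups overlap for every gene, and B4galt1 and Hk2 vary most between glands of the same group.

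Slc2a1 encodes GLUT1, the facilitative glucose transporter of the basolateral membrane and, in the lactating gland, also of Golgi membranes. In LPS replicates 1 to 5 it was at 18.4, 29.4, 22.6, 23.1 and 22.6 FPKM, and in PBS replicates 1 to 5 at 18.9, 22.3, 27.4, 19.5 and 23.4 FPKM. LPS replicate 2 was the highest of all 10 libraries and LPS replicate 1 the lowest, so the LPS group spanned the whole PBS range. The means were 23.2 ± 3.93 FPKM in LPS and 22.3 ± 3.40 FPKM in PBS glands (SD, n = 5 each). Its log2 change was 0.05 ± 0.13 (SE; 95% interval -0.22 to 0.33; limma adjusted p = 0.898), and without LPS replicate 2 it was -0.03.

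Hk1 encodes hexokinase 1, which phosphorylates glucose in most cells. It was at 17.9, 26.6, 21.2, 22.6 and 22.1 FPKM in LPS replicates 1 to 5, against 16.7, 19.05, 20.4, 17.8 and 20.1 FPKM in PBS replicates 1 to 5. All LPS libraries but replicate 1 lay above every PBS library. Means were 22.1 ± 3.13 FPKM in LPS and 18.8 ± 1.55 FPKM in PBS glands (SD, n = 5 each), with a log2 change of 0.21 ± 0.10 (95% interval -0.01 to 0.44; limma adjusted p = 0.339).

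Hk2 encodes hexokinase 2, the inducible form of insulin-sensitive tissues and of growing cells. Its levels were 3.12, 6.77, 7.43, 4.90 and 5.24 FPKM in LPS replicates 1 to 5, against 4.16, 7.84, 7.64, 4.07 and 5.04 FPKM in PBS replicates 1 to 5. Replicates 2 and 3 were the highest in both groups. The coefficient of variation was 30.8% in LPS and 32.3% in PBS glands, and the log2 change was -0.06 ± 0.21 (95% interval -0.52 to 0.41; limma adjusted p = 0.943). Without LPS replicate 1 the log2 change was 0.10.

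Pgm1, the chromosome 4 gene and the main phosphoglucomutase, was at 12.0, 15.1, 11.4, 14.6 and 11.3 FPKM in LPS replicates 1 to 5, against 8.92, 10.9, 15.6, 12.5 and 13.4 FPKM in PBS replicates 1 to 5. PBS glands held both the lowest and the highest value. The log2 change was 0.08 ± 0.14 (95% interval -0.22 to 0.38; limma adjusted p = 0.855).

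Pgm2, the chromosome 5 gene, encodes an enzyme that acts mainly on phosphopentoses and also on glucose phosphates. It was at 13.5, 15.2, 15.9, 11.8 and 15.1 FPKM in LPS replicates 1 to 5, against 10.9, 11.025, 12.9, 10.6 and 14.3 FPKM in PBS replicates 1 to 5. All 5 LPS libraries lay above the PBS median, but PBS replicate 5 was above LPS replicates 1 and 4. Means were 14.3 ± 1.67 FPKM in LPS and 11.9 ± 1.58 FPKM in PBS glands (SD, n = 5 each). The log2 change was 0.24 ± 0.11 (95% interval 0.01 to 0.48; unadjusted p = 0.0424, limma adjusted p = 0.276), and its unadjusted p was above 0.15 under 3 other scalings, in edgeR and in DESeq2.

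Ugp2 encodes UDP-glucose pyrophosphorylase, which makes the UDP-glucose from which UDP-galactose is formed. LPS replicates 1 to 5 had 63.8, 51.1, 48.8, 56.4 and 55.9 FPKM, against 58.7, 51.0, 48.4, 55.5 and 55.9 FPKM in PBS replicates 1 to 5. Replicate 1 was the highest and replicate 3 the lowest in both groups. The gene had the narrowest interval of the 8, with a log2 change of 0.03 ± 0.09 (95% interval -0.17 to 0.23; limma adjusted p = 0.922).

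Slc35a2 encodes the transporter that brings UDP-galactose into the Golgi. It was at 13.6, 14.3, 12.5, 13.9 and 14.2 FPKM in LPS replicates 1 to 5, against 16.0, 15.5, 16.3, 13.2 and 18.9 FPKM in PBS replicates 1 to 5. All 5 LPS libraries lay below the PBS median, and PBS replicate 4 alone kept the groups from separating. Means were 13.7 ± 0.741 FPKM in LPS and 15.97 ± 2.03 FPKM in PBS glands (SD, n = 5 each). The log2 change was -0.20 ± 0.09 (95% interval -0.40 to 0.01; limma adjusted p = 0.320). With FPKM scaled to the sum outside milk proteins it was -0.42, with a limma adjusted p of 0.0619, the lowest that any of the 8 genes reached in any alternative.

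B4galt1 encodes the galactosyltransferase that alpha-lactalbumin turns into lactose synthase, and in other cells the same enzyme adds galactose to glycoproteins. It was at 103, 105, 156, 140.1 and 90.5 FPKM in LPS replicates 1 to 5, against 81.3, 130.35, 208, 106 and 119.6 FPKM in PBS replicates 1 to 5. Replicate 3 was the highest in both groups, and the PBS range enclosed the LPS range. Means were 118.7 ± 27.7 FPKM in LPS and 128.95 ± 47.8 FPKM in PBS glands (SD, n = 5 each), with coefficients of variation of 23.3% and 37.1%. The log2 change was -0.08 ± 0.22 (95% interval -0.56 to 0.40; limma adjusted p = 0.919), and without PBS replicate 3 it was 0.11. Transcripts from different start sites of B4galt1 are counted together in this table.

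**Figure D2:**
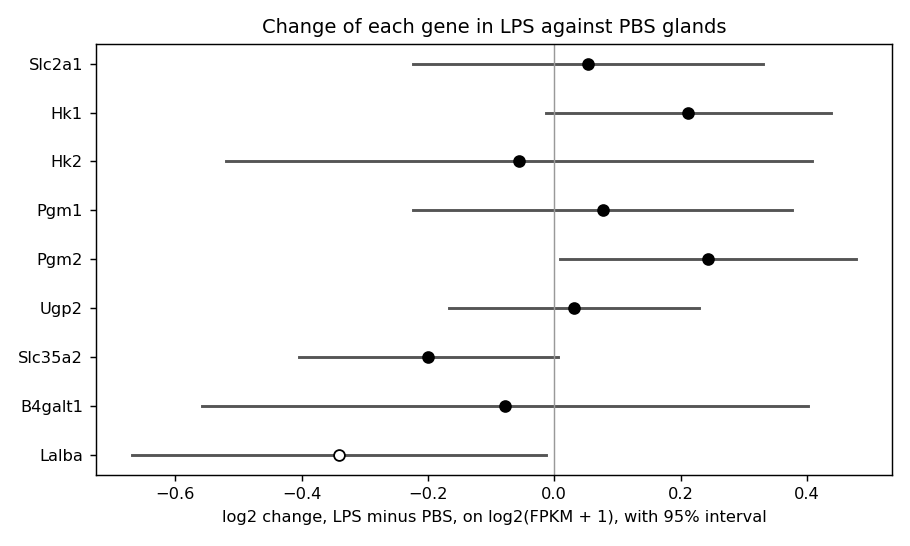
Log2 change of each gene, LPS minus PBS on log2(FPKM + 1), with its 95% limma interval; filled points are the 8 genes and the open point is Lalba. The points of the 8 genes lie between -0.20 and 0.24, and of these 8 only Pgm2 has an interval that leaves out 0. The interval of Lalba, -0.67 to -0.01, also leaves out 0.

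In level per length the genes kept a similar order in both groups. B4galt1 was the highest, at 118.7 FPKM in LPS and 128.95 FPKM in PBS glands, followed by Ugp2 at 55.2 and 53.9 FPKM, and these 2 ranges overlapped neither each other nor the next gene. Slc2a1 and Hk1 came next and their ranges overlapped in both groups, although Slc2a1 was above Hk1 in all 5 LPS and all 5 PBS libraries. Slc35a2, Pgm1 and Pgm2 followed with overlapping neighbours, in the order Pgm2, Slc35a2, Pgm1 in LPS and Slc35a2, Pgm1, Pgm2 in PBS glands. Hk2 was the lowest, at 5.49 ± 1.69 FPKM in LPS and 5.75 ± 1.86 FPKM in PBS glands (SD, n = 5 each), below every other gene in all libraries. Levels rest on the length used in the deposited FPKM, which for Hk1 was 4278 bases where the exons of all its transcripts cover 8532.

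Ratios of a pair of genes within a library do not depend on library scaling, and 4 were compared with an exact permutation test (two-sided, all assignments of 5 and 5 libraries; smallest possible p 0.00794). The Slc2a1 to Slc35a2 ratio, glucose entry against UDP-galactose entry into the Golgi, was 1.36, 2.05, 1.81, 1.66 and 1.59 in LPS replicates 1 to 5, against 1.18, 1.44, 1.68, 1.48 and 1.24 in PBS replicates 1 to 5. LPS libraries were mostly higher but the groups overlapped, with a log2 difference of 0.27 (exact p = 0.0952, adjusted over the 4 ratios 0.381). With 1 library left out the log2 difference was between 0.20 without LPS replicate 2 (exact p = 0.182) and 0.34 without LPS replicate 1 (exact p = 0.0397). Without PBS replicate 3 it was also 0.34 (exact p = 0.0476), and leaving out any other library gave an exact p above 0.1. The Hk2 to Hk1 ratio averaged 0.247 ± 0.0656 in LPS and 0.303 ± 0.0836 in PBS glands (SD, n = 5 each; exact p = 0.214, adjusted 0.429). The Pgm1 to Pgm2 ratio averaged 0.918 ± 0.213 in LPS and 1.03 ± 0.165 in PBS glands (SD, n = 5 each; exact p = 0.325, adjusted 0.434). The B4galt1 to Lalba ratio averaged 0.0322 ± 0.00534 in LPS and 0.0292 ± 0.0146 in PBS glands (SD, n = 5 each; exact p = 0.476, adjusted 0.476). Its spread was narrower in LPS than in PBS glands, and PBS libraries held both the lowest ratio, 0.0150 in replicate 1, and the highest, 0.0521 in replicate 3. The log2 difference of this ratio was 0.26, and it ran from 0.06 without PBS replicate 1 to 0.51 without PBS replicate 3 (exact p = 0.873 and 0.0952).

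**Figure D3:**
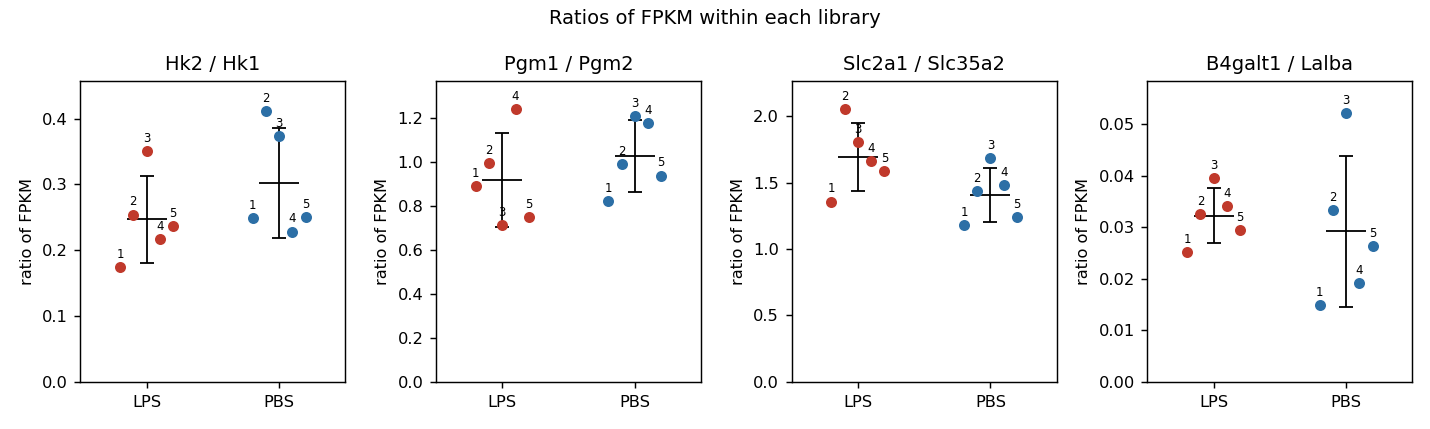
Ratio of FPKM of 2 genes within each LPS library (left, red) and each PBS library (right, blue), with the replicate number over each point and the mean and SD of 5 libraries as black bars. All 4 ratios overlap between the groups.

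Another scaling of the libraries moved the 8 genes together with all others. With FPKM scaled to the sum outside milk proteins, all tested genes had a median log2 change of -0.15, against 0.05 as deposited. Under it Slc2a1 was at -0.17, Ugp2 at -0.20, Pgm1 at -0.14, Hk1 at -0.01 and Pgm2 at 0.03. For DESeq2 the median used next covers all genes with a log2 change, also those without an adjusted p. Relative to the median of all tested genes, the places of most genes were kept over the deposited scale, 3 other scalings, edgeR and DESeq2. Slc35a2 was 0.25 to 0.27 below that median, B4galt1 0.13 to 0.19 below and Hk2 0.08 to 0.11 below. Pgm2 was 0.18 to 0.22 above it, Hk1 0.13 to 0.19 above and Pgm1 0.01 to 0.04 above. Slc2a1 and Ugp2 lay within 0.08 of the median on either side, and for these 2 genes the sign turned. Read against 0, the log2 changes of B4galt1 and Hk2 were positive with library weights (0.03 and 0.09). The median of all tested genes was 0.07 there, so B4galt1 stayed below it and Hk2 was above it. None of the 8 genes was called in any of these fits, and their places against the median were not tested.

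**Figure D4:**
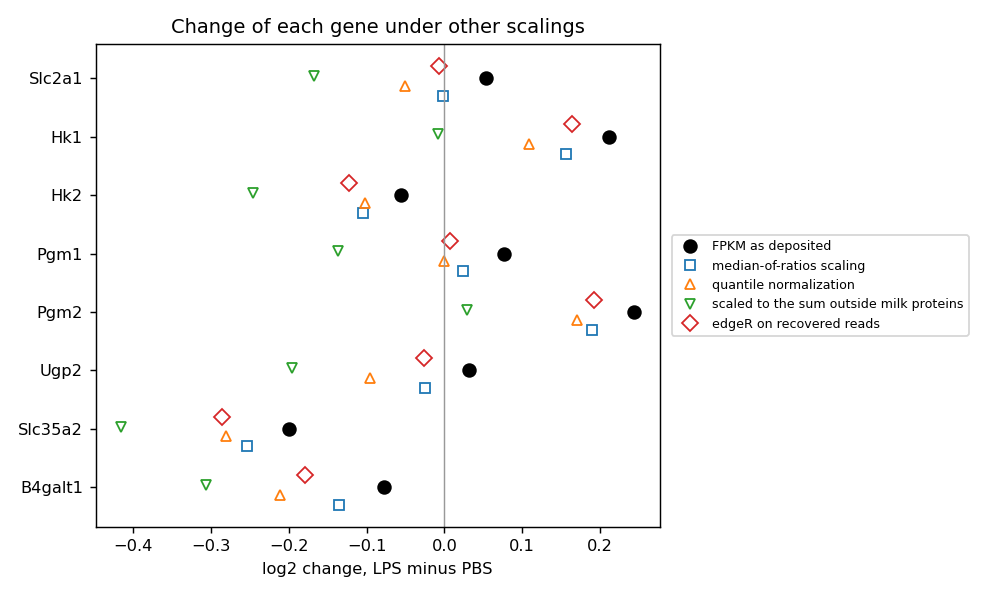
Log2 change of each of the 8 genes, LPS minus PBS, with FPKM as deposited (black) and under 3 other scalings and in edgeR on recovered reads (open symbols). Scaling to the sum outside milk proteins moves every gene towards lower values, and Hk2, Slc35a2 and B4galt1 lie below 0 in all 5.

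Genes of neighbouring steps were counted from 10 lists of 106 entries, of which 89 were tested. Across these lists 3 genes were called higher in LPS glands and 0 lower, where 2.63% of all tested genes were called higher and 0.605% lower. Among other sugar transporters 1 of 6 tested genes was called higher and 0 lower (median log2 change 0.16). This was Slc5a9, a sodium-coupled sugar transporter, at 7.66, 7.59, 6.24, 7.25 and 7.84 FPKM in LPS replicates 1 to 5, against 4.00, 5.59, 4.84, 4.75 and 5.91 FPKM in PBS replicates 1 to 5. Every LPS gland was above every PBS gland (log2 change 0.47 ± 0.11, limma adjusted p = 0.0320). Slc2a6 missed the filter on low values, so it was not in the limma fit reported here, and its values in the other fits are not given. The ratio of its means, LPS over PBS, was 6.73. Slc2a6 was at 0.743 to 5.27 FPKM in LPS and 0.306 to 0.567 FPKM in PBS libraries, without overlap. The other untested sugar transporters of this list overlapped between the groups. Among other nucleotide sugar transporters 1 of 9 was called higher and 0 lower (median 0.07). Slc35a3, which carries UDP-N-acetylglucosamine into the Golgi, was at 10.9, 12.9, 16.7, 10.975 and 12.7 FPKM in LPS replicates 1 to 5, against 7.58, 8.49, 9.68, 7.40 and 7.28 FPKM in PBS replicates 1 to 5. Its groups did not overlap either (log2 change 0.60 ± 0.12, limma adjusted p = 0.0197). Among enzymes of galactose and UDP-sugar metabolism 1 of 12 was called higher and 0 lower (median 0.01). Gbe1, the glycogen branching enzyme, averaged 5.30 ± 0.0857 FPKM in LPS and 3.76 ± 0.563 FPKM in PBS glands (SD, n = 5 each; log2 change 0.41 ± 0.10, limma adjusted p = 0.0390). Scaled to the sum outside milk proteins, none of the 3 was called: the log2 change was 0.28 for Slc5a9 (limma adjusted p = 0.169), 0.22 for Gbe1 (0.231) and 0.39 for Slc35a3 (0.0689). The calls of Slc5a9 and Gbe1 also ended with median-of-ratios scaling (limma adjusted p = 0.0738 and 0.0772) and in edgeR (0.0611 and 0.0761), and all 3 ended without the 3 libraries richest in B and T cell markers (0.109 for Slc5a9, 0.118 for Gbe1 and 0.134 for Slc35a3). In that smaller fit the log2 changes were 0.55, 0.46 and 0.49, and 35 of all tested genes were called. With 1 library left out the log2 change ran from 0.41 to 0.52 for Slc5a9, 0.37 to 0.47 for Gbe1 and 0.51 to 0.66 for Slc35a3, though calls were lost. Slc5a9 was no longer called without LPS replicate 2, 4 or 5 or PBS replicate 1, 3 or 4 (limma adjusted p at most 0.0932). Slc35a3 was not called without LPS replicate 2 or PBS replicate 1, 4 or 5 (at most 0.0625). Gbe1 kept its call only without LPS replicate 1 or PBS replicate 4, and otherwise had limma adjusted p-values of at most 0.105.

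The 7 remaining lists had 0 called genes in either direction in limma. Of other hexokinases and phosphoglucomutases 4 were tested (median log2 change -0.08), among them Pgm3, of UDP-N-acetylglucosamine synthesis, at 3.36 ± 0.623 FPKM in LPS and 4.50 ± 1.03 FPKM in PBS glands, and Pgm5, at 3.14 ± 0.418 and 3.02 ± 0.750 FPKM. At an unadjusted p below 0.05, 0 were higher and 1 lower, where 12.4% of all tested genes were higher and 4.07% lower. Of the other beta-1,4-galactosyltransferases 5 were tested (median 0.13; 1 higher and 0 lower unadjusted), with B4galt3 at 10.1 ± 1.18 FPKM in LPS and 9.30 ± 1.23 FPKM in PBS glands and B4galt7 at 8.62 ± 1.23 and 7.78 ± 1.34 FPKM. All 6 listed together summed to 26.5 to 31.8 FPKM in LPS and 23.3 to 28.6 FPKM in PBS glands, below the lowest level of B4galt1 in any library. The partner and Golgi support list had 8 tested genes (median -0.07; 0 higher and 2 lower unadjusted). Lalba, the regulatory subunit of lactose synthase, was at 4088, 3207, 3940, 4103 and 3066 FPKM in LPS replicates 1 to 5, against 5436, 3913, 3990, 5495 and 4540 FPKM in PBS replicates 1 to 5. All 5 LPS libraries lay below the PBS median, and replicates 2 and 5 below every PBS library (log2 change -0.34 ± 0.15, limma adjusted p = 0.279). Atp2c2, a calcium and manganese pump of the secretory pathway, was at 52.2 ± 6.76 FPKM in LPS and 55.5 ± 12.8 FPKM in PBS glands.

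Glycolysis below glucose 6-phosphate had 16 tested genes, 14 with positive changes, where 61.4% of all tested genes were positive, and a median log2 change of 0.25. At an unadjusted p below 0.05, 6 were higher and 1 lower, where 12.4% of all tested genes were higher and 4.07% lower. Gapdh averaged 623 ± 43.7 FPKM in LPS and 515 ± 80.6 FPKM in PBS glands (adjusted p = 0.226 in limma). Pkm, pyruvate kinase, averaged 369.9 ± 30.9 and 318 ± 44.9 FPKM. Slc16a3 of this list missed the filter on low values, so it was not in the limma fit reported here, and its values in the other fits are not given. Its libraries held 0.623 to 2.94 FPKM in LPS and 0.191 to 0.424 FPKM in PBS glands, without overlap. The pentose phosphate list had 8 tested genes (median 0.13; 2 higher and 0 lower unadjusted), with Tkt, transketolase, at 105 ± 13.0 FPKM in LPS and 116 ± 8.37 FPKM in PBS glands and Taldo1, transaldolase, at 277 ± 31.0 and 242 ± 11.7 FPKM. Signals that act on glucose uptake had 13 tested genes (median -0.01; 0 and 0 unadjusted), with Txnip, an inhibitor of glucose uptake, at 168 ± 83.8 FPKM in LPS and 195 ± 79.8 FPKM in PBS glands and Elf5, an epithelial transcription factor of lactation, at 199 ± 27.4 and 208 ± 18.4 FPKM. The milk protein list, which also holds Lalba, had 8 tested genes, 7 with negative changes, and a median of -0.32 (0 higher and 3 lower unadjusted). Csn1s1, an alpha casein, was at 51038 ± 8555 FPKM in LPS and 50621 ± 7515 FPKM in PBS glands, and Wap, whey acidic protein, at 52845 ± 11250 and 70887 ± 8920 FPKM.

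**Figure D5:**
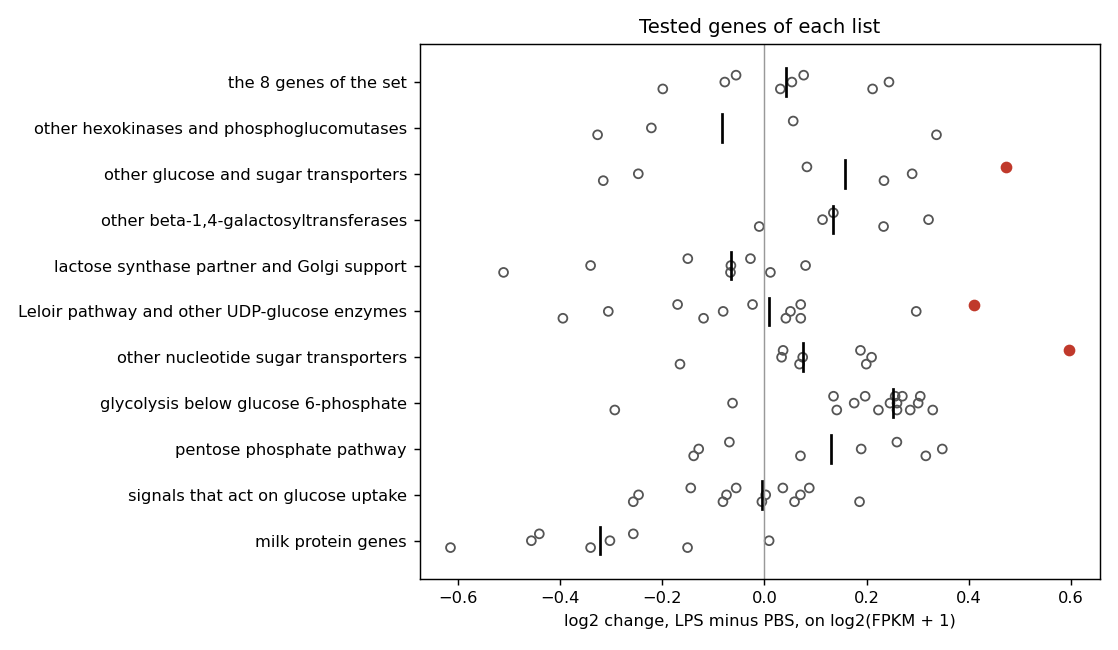
Log2 change, LPS minus PBS on log2(FPKM + 1), of each tested gene of the 8-gene set and of 10 lists of neighbouring steps; red points are called at a limma adjusted p below 0.05 and black bars are medians. Only Slc5a9, Gbe1 and Slc35a3 are called, and the medians run from -0.32 for milk proteins to 0.25 for glycolysis.

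Markers of other cell types were read beside these values. For the counts below, limma called 2.63% of all tested genes higher and 0.605% lower. Of luminal epithelial markers 1 of 7 was called higher and 0 lower (median log2 change 0.32; summed level 1007 to 1231 FPKM in LPS and 942.9 to 1062 FPKM in PBS glands). Of myoepithelial markers 1 of 7 was higher and 0 lower (median 0.21; 424.3 to 547.8 FPKM in LPS and 327.3 to 447.4 FPKM in PBS glands). Macrophage markers had 0 of 7 called (median -0.44), adipocyte markers 0 of 7 (median -0.05), endothelial markers 0 of 5 (median 0.03) and red cell genes 0 of 3 (median 0.36). None of the 10 B and T cell markers passed the filter, and they summed to 0.614 to 24.5 FPKM in LPS and 0.974 to 64.6 FPKM in PBS glands. Apart from the B and T cell score, the part of these cells in the values of the 8 genes was not tested.

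Genes with the pattern most like B4galt1 and Slc2a1 over the 10 libraries were taken among other tested genes with a mean of at least 5 FPKM, leaving out predicted genes and pseudogenes. These likenesses are a description, chosen as the highest of many. For B4galt1 they were Pald1 (Pearson r = 0.94, Spearman rho = 0.89), Scara5 (0.93 and 0.94), Pcx (0.92 and 0.94), R3hcc1l (0.92 and 0.93) and Dapk3 (0.89 and 0.85), and without the 2 libraries farthest from the median r was 0.72 to 0.91. Pcx, pyruvate carboxylase, was at 54.7 ± 7.99 FPKM in LPS and 55.2 ± 8.58 FPKM in PBS glands. For Slc2a1 they were Trpc4ap (r = 0.95, rho = 0.82), Kpna6 (0.93 and 0.85), Dlat (0.93 and 0.94), Elovl1 (0.92 and 0.94) and Nup54 (0.92 and 0.71), and without the 2 farthest libraries r was 0.86 to 0.95. Dlat, a subunit of pyruvate dehydrogenase, was at 22.45 ± 2.45 FPKM in LPS and 21.96 ± 3.05 FPKM in PBS glands.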

How the data were processed

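RNA of 10 mammary glands (5 LPS, 5 PBS) was sequenced. Per the submitters' processing notes the build was mm10 and the tools were STAR 2.5, HTSeq 0.6.1 and a DESeq2 whose version reads 2; roles and settings are not given in the sources used here. The authors deposited FPKM for 35275 genes, and a table of 908 genes with raw counts, normalized values (a signal: counts divided by a size factor), log2 fold changes and p-values, per the file headers.

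Genes with at least 1 FPKM in at least 5 libraries were tested with limma 3.58.1 in R 4.3.3 (intensity trend, two-sided) on log2(FPKM + 1), with group as the only term and Benjamini-Hochberg adjustment over all 11414 genes; this scale understates changes of low genes. Each library's depth followed from the authors' counts and gene lengths. Gene lengths were then searched until all FPKM of a gene gave whole reads within 0.002 reads, which was found for 23059 of 23059 genes above 0. edgeR 4.0.16 and DESeq2 1.42.0 were run on these reads. A reference table gave 34490 symbols, and 3 more came from the table of the authors.

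Of each neighbouring list the named genes were up to 3 called members of largest change, or the 2 of highest mean where none was called. Members, lists, tests and alternatives were chosen with earlier results of these data known. Per group, replicate numbers follow the sample names. Left-out libraries, other scalings, pseudocounts and filters, library weights, a replicate block and a B and T cell covariate were tried. The procedures were tested on simulated data.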

Additional observations from a re-analysis of the deposited data

How the results depend on the processing

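None of the 8 genes was called under any of the 25 alternatives to the limma fit (0 of 8 each), and their lowest adjusted p was 0.0619. The number of all genes called was 369 as reported, and it was 126 without a filter, 606 scaled outside milk proteins, 656 with library weights, 894 in DESeq2, 775 with the B and T cell score as covariate and 35 without the 3 libraries of highest score. Leaving out 1 library gave 150 (without LPS replicate 2 or PBS replicate 4) to 517 (without LPS replicate 1). The share of higher calls was 81.3% as deposited, 72.8% with median-of-ratios scaling, 61.6% with quantile normalization, 21.9% scaled outside milk proteins, 71.6% in edgeR and 67.9% in DESeq2. The cause of these shifts was not tested.

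Signs of small changes turned in 28 of 200 alternative values of the 8 genes, in part under scalings that moved the median of all genes alike (0.0476 as deposited, -0.1466 outside milk proteins): against that median Hk1 and Pgm1 stayed higher under every scaling. With median-of-ratios scaling the log2 change was -0.0017 for Slc2a1, -0.0255 for Ugp2 and -0.0485 for Csn1s1. Quantile normalization gave -0.0503 for Slc2a1, -0.0963 for Ugp2 and -0.0009 for Pgm1. Scaling outside milk proteins gave -0.1672 for Slc2a1, -0.1962 for Ugp2, -0.0081 for Hk1, -0.1366 for Pgm1, -0.1153 for Pgm5, -0.0953 for B4galt3, -0.0713 for B4galt7, -0.0074 for Pkm, -0.041 for Taldo1 and -0.2223 for Csn1s1; under it Pgm3 was called lower (-0.5068, limma adjusted p = 0.0459). On recovered reads edgeR gave -0.0066 for Slc2a1, -0.0263 for Ugp2 and -0.0551 for Csn1s1, edgeR with median-of-ratios factors -0.0085, -0.0268 and -0.0566, and DESeq2 -0.0057, -0.0242 and -0.0542. Library weights gave 0.0272 for B4galt1 and 0.0923 for Hk2. The B and T cell covariate gave 0.0255 for Hk2 and -0.0514 for Csn1s1, and leaving out the 3 libraries gave 0.0179 for Elf5 and -0.0404 for Csn1s1. Leaving out 1 library gave ranges across 0 of -0.225 to 0.1111 for B4galt1, -0.0315 to 0.1299 for Slc2a1, -0.022 to 0.0734 for Ugp2, -0.1607 to 0.0973 for Hk2, -0.0228 to 0.1625 for Pgm1, -0.0004 to 0.1493 for Pgm5, -0.1346 to 0.0278 for Atp2c2, -0.0839 to 0.0871 for Csn1s1 and -0.1195 to 0.0145 for Elf5. The Slc2a1 to Slc35a2 ratio had a log2 difference of 0.1956 to 0.3448 with 1 library left out.

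With the replicate number as a replicate block, 1229 genes were called and 0 of the 8, with the lowest limma adjusted p at 0.0729 for Pgm2. The labels do not say that a number marks an animal. Same-numbered libraries correlated at 0.0993 to 0.4939 in their deviations from the group means, and 3 of 5 LPS and 2 of 5 PBS libraries correlated best with their own number, and whether a number marks an animal was not settled. Between same-numbered libraries Hk1 and Pgm2 were higher in LPS in 5 of 5, Ugp2 in 4 and Pgm1 in 3. B4galt1, Slc2a1 and Hk2 were higher in LPS in 2 of 5, and Slc35a2 in 1. These counts were not made for all genes and carry no test. Each of the 8 genes had at least 325 reads in every library.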

Other observations

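The following values were chosen after they were seen and carry no test beyond the limma fit over all genes. Gfpt1, the rate-limiting enzyme of hexosamine synthesis, which draws fructose 6-phosphate away from glycolysis, was at 8.06, 9.86, 9.82, 10.9 and 11.4 FPKM in LPS replicates 1 to 5, against 12.6, 12.4, 14.1, 13.2 and 14.9 FPKM in PBS replicates 1 to 5. Every LPS gland was below every PBS gland, with a log2 change of -0.40 ± 0.10 and a limma adjusted p of 0.0507, above the threshold of 0.05. Pgm3, of the same route to UDP-N-acetylglucosamine, averaged 3.36 ± 0.623 FPKM in LPS and 4.50 ± 1.03 FPKM in PBS glands (SD, n = 5 each; log2 change -0.33, limma adjusted p = 0.271). Uap1, also of this route, did not share the lower level: its groups overlapped (log2 change -0.0234, limma adjusted p = 0.9433). The Gfpt1 to Uap1 ratio was 0.3748 to 0.595 in LPS and 0.473 to 0.7296 in PBS libraries, with overlap.

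Slc35a3 and Slc35a2 carry UDP-N-acetylglucosamine and UDP-galactose into the Golgi. The ratio of Slc35a3 to Slc35a2 was 0.788 to 1.33 in LPS and 0.386 to 0.595 in PBS libraries, without overlap. This ratio does not depend on library scaling. The pair was picked after its values were seen, and Slc35a3 alone already did not overlap, so the ratio is no separate support for its change.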
